A study of Mus musculus with 6 samples.

Results

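Interferon response genes were followed here as a set of 49 genes, listed by symbol. The list was drawn up with earlier results of these data known. The set holds sensors of foreign RNA and DNA, the interferon regulatory factors and STAT2, antiviral effectors, the oligoadenylate synthetase family, the CXCR3 ligand chemokines, interferon-inducible GTPases and the interferon-inducible part of MHC class I antigen processing. Of the 49, 42 had an array row annotated with that symbol alone, among 20261 genes with such a row, and the brightest row stood for the gene. After rows of low intensity were left out, 41 members were tested among 19123 genes. The member under that limit was Isg15, a ubiquitin-like protein, whose row lay between 0.00145 and 3.24 intensity units on the 6 arrays. Ifi44 had no row, and Ifit3, Oas1a, Oas3, Gbp6, Igtp and Iigp1 had only rows that also name other genes.

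The arrays compared hepatocytes of mice lacking the splicing factor SRSF1 in hepatocytes (SRSF1HKO) with hepatocytes of wild type mice (WT). Both groups were of the strain background C57BL/6 and 3 months old, neither received a treatment, and the cells were collected by perfusing the liver and are named primary hepatocyte cultures. The SRSF1HKO group and the WT group each had 3 samples with 1 mouse exon array per sample. Neither the Cre line nor its promoter is named in the labels. The labels do not state that each sample came from its own animal, and p-values then reflect no more than the scatter of these samples, part of which may be technical.

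Cells that detect viral nucleic acid secrete interferons, and interferon bound to its receptor activates transcription factors, STAT2 and IRF9 among them, that bind the interferon-stimulated response element (ISRE) in front of target genes. Interferon gamma acts mainly through GAS elements, and NF-kB adds to the induction of several chemokines. In the liver, hepatocytes, resident macrophages and endothelial cells all respond to interferon, and the induced proteins degrade viral RNA, block viral entry, attract T cells and supply peptides to MHC class I.

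Promoter windows with an ISRE core are printed here for members called in a fit of 6 arrays, together with the window of Tap1. They run from 250 bases before to 50 bases after the transcription start, as RefSeq gives them on build GRCm38.p6. The called members Oasl1, Cxcl9, Trim25 and Psmb9 had a matched window without an ISRE core, so the choice of windows rests on the motif. Cxcl10 lies on the minus strand at chr5:92348840-92349139, and its capitals mark an ISRE core (GAAA, any 2 bases, GAAA) 213 bases before the start and an NF-kB match (GGGA, any 2 bases, TTCC) 159 bases before it. Gbp3, the member with the lowest difference, lies on the plus strand at chr3:142559794-142560093, and its capitals mark 2 overlapping ISRE cores in reverse orientation, 45 and 39 bases before the start. Irf2 lies on the plus strand at chr8:46739495-46739794, and its capitals mark an ISRE core 241 bases before the start. Tap1 lies on the plus strand at chr17:34187306-34187605, and its capitals run from the start of Psmb9, which is read the other way, to the start of Tap1.
Cxcl10: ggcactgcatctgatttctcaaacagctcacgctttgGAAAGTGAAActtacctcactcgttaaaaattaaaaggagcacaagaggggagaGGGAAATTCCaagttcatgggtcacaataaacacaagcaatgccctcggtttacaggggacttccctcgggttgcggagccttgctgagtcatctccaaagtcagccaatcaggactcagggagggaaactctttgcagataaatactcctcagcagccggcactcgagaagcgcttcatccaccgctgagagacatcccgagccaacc
Gbp3: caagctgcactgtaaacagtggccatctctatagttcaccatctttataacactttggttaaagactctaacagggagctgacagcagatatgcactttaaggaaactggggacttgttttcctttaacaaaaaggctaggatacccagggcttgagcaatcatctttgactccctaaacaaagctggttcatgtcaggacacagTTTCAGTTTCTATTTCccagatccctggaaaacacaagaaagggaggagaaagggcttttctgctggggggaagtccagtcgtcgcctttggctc
Irf2: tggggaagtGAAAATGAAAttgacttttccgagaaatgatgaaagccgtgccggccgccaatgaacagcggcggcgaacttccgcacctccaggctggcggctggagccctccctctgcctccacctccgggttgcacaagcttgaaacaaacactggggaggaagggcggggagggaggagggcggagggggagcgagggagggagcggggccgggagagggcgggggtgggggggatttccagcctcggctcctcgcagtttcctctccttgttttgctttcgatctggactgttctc
Tap1: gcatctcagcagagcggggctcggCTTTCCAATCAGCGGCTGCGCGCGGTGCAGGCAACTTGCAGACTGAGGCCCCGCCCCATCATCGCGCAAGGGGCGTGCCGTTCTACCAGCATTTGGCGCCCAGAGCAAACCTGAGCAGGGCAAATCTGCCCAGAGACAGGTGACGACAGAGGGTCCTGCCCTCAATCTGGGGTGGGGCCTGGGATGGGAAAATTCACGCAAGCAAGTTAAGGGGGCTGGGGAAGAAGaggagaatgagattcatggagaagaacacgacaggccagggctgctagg

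RefSeq windows were matched for 36 of the 49 members, which have 43 windows in all. The ISRE core, searched on both strands, occurred in 17 of the 43 (39.5%), against 1131 of all 32851 windows (3.44%). The GAS letters TTCNNNGAA, searched in the same way as those of NF-kB, occurred in 10 member windows (23.3%), against 8.30% of all windows, and the NF-kB letters in 5 (11.6%), against 1.47%. All 3 motifs were thus commoner in the promoters of interferon response genes than in all windows of this length, as a description of the letters only. The ISRE core stood in front of Ifit1, Ifit3, Isg15, Rsad2, Oas1a, Oas3, Igtp, Irgm1, Gbp2, Gbp3, Stat2, Irf2, Ddx58, Ifih1, Bst2, B2m and Cxcl10. A match is not a binding site, and a window without one says nothing about the factor.

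A few facts of the arrays bear on everything below. The deposited intensities were not on a shared scale: the array medians were 28.8, 18.6 and 20.8 in SRSF1HKO and 31.8, 39.8 and 25.6 in WT, so the median difference of all genes was -0.44 on the log2 scale as deposited and -0.01 after quantile normalization. Each called member is therefore given on both scales. Other differences are after quantile normalization unless the deposited scale is named, and need not hold on the other scale. The words "rose" and "fell" are kept for genes that both fits called in the same direction at an adjusted p under 0.05. SRSF1HKO replicate 1 stood apart: it correlated at 0.895 to 0.912 with the other SRSF1HKO arrays, which correlated at 0.940 with each other. With the WT arrays it correlated more closely, at 0.916 to 0.928, where SRSF1HKO replicates 2 and 3 did at 0.924 to 0.935. SRSF1HKO replicate 1 read 9.95 for the X-inactivation transcript Xist, against 2122 to 3532 on the other arrays. For the Y-linked Eif2s3y it read 129.6, against 2.27 to 7.78, so it was male and the others female. Results are given with and without this array. Values listed for a group are deposited intensities of replicates 1, 2 and 3 in that order.

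The deleted gene itself, Srsf1, read 242, 371 and 386 in SRSF1HKO, against 666, 667 and 607 in WT. Every SRSF1HKO array was below every WT array. The difference was -0.53 ± 0.18 on the log2 scale (SE, limma, adjusted p = 0.185) after quantile normalization and -0.95 as deposited (limma, adjusted p = 0.010), so the call depended on the scale. Srsf1 has 2 rows on the array, and with the median over both in place of the brighter one the quantile difference was -0.27 (limma, adjusted p = 0.48).

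The differences of the interferon response genes lay above those of the array as a whole, and few of the members passed the test. The median difference of the 41 members between SRSF1HKO and WT was 0.20 on the log2 scale after quantile normalization, against -0.01 for all genes tested, and -0.22 as deposited, against -0.44. The middle of the distribution ran from 0.10 to 0.62 between its quartiles after quantile normalization, against -0.14 to 0.14 for all genes. The members were also brighter, with a median intensity of 235.8 against 132.6 for all genes tested, and 30 of 41 were brighter than the median gene. The part of brightness in these comparisons was not tested. In all, 35 of 41 members had a difference above 0 after quantile normalization, where 48.8% of all genes did. As deposited, 13 of 41 were above 0, where 6.58% of all genes were, and 35 of 41 were above the median gene. That last count restates the same values after a shift by the all-gene median, and is not separate evidence.

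Of the 41 members, 2 rose and 0 fell by both fits, where 0.842% of all genes rose and 1.40% fell. The risers were Cxcl10, a chemokine that draws activated T cells through the receptor CXCR3, and Oasl1, an oligoadenylate synthetase-like protein that in mice represses the translation of Irf7. After quantile normalization alone 5 members were called higher and 0 lower, where 2.73% and 1.41% of all genes were, and the additional 3 were Cxcl9, Trim25 and Psmb9. On the deposited scale 2 were called higher and 3 lower, where 0.931% and 6.86% of all genes were, and the 3 lower were Gbp3, Cxcl11 and Irf2. At an unadjusted p under 0.05 from limma after quantile normalization, 15 members were higher and 3 lower, where 8.94% and 6.40% of all genes were. Both risers were called after quantile normalization whichever array was left out, and only the call on the deposited scale was lost. Without SRSF1HKO replicate 2, Cxcl10 was at 1.42 after quantile normalization (limma, adjusted p = 0.00794) and 1.03 as deposited (adjusted p = 0.0719), and Oasl1 at 1.33 (adjusted p = 0.0151) and 0.84 (adjusted p = 0.164). On the deposited scale Oasl1 was also not called without SRSF1HKO replicate 3, WT replicate 1 or WT replicate 2, at 0.97 to 1.08 (limma, adjusted p = 0.0721 to 0.101). Fewer responding cells and less RNA per cell cannot be told apart in RNA from whole preparations, and the same holds for more of either.

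**Figure D1:**
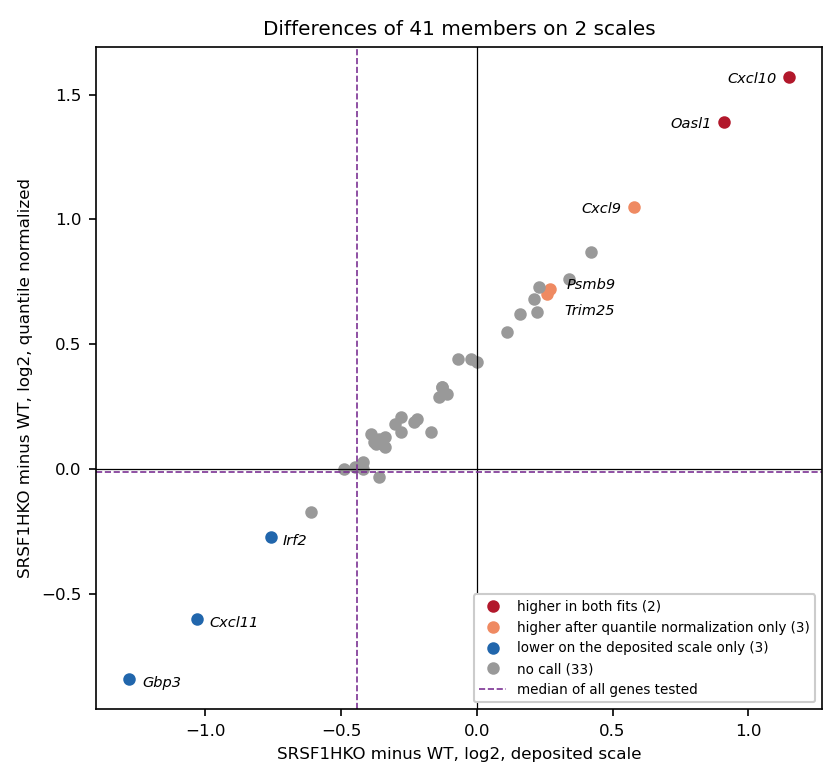
Difference between SRSF1HKO and WT of each of the 41 members tested, on the log2 scale as deposited (x axis) and after quantile normalization (y axis), with colours for the calls at an adjusted p under 0.05 and dashed lines at the median of all genes (-0.44 and -0.01). Cxcl10 and Oasl1 are called on both scales, and 33 members are called on neither.

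Groups that did not overlap were commoner than calls. After quantile normalization all 3 SRSF1HKO arrays were above all 3 WT arrays for 16 of 41 members and below them for 3, where 11.6% and 10.1% of all genes were. As deposited, 2 members lay above and 7 below without overlap, where 1.69% and 28.0% of all genes did. The 16 were Zbp1, Trim25, Irf3, Irf7, Irf8, Isg20, Bst2, Xaf1, Oas2, Oasl1, Cxcl9, Cxcl10, Irgm1, Psmb8, Psmb9 and Psmb10, and the 3 were Irf2, Cxcl11 and Gbp3. Members of every role were thus among the 16.

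**Figure D2:**
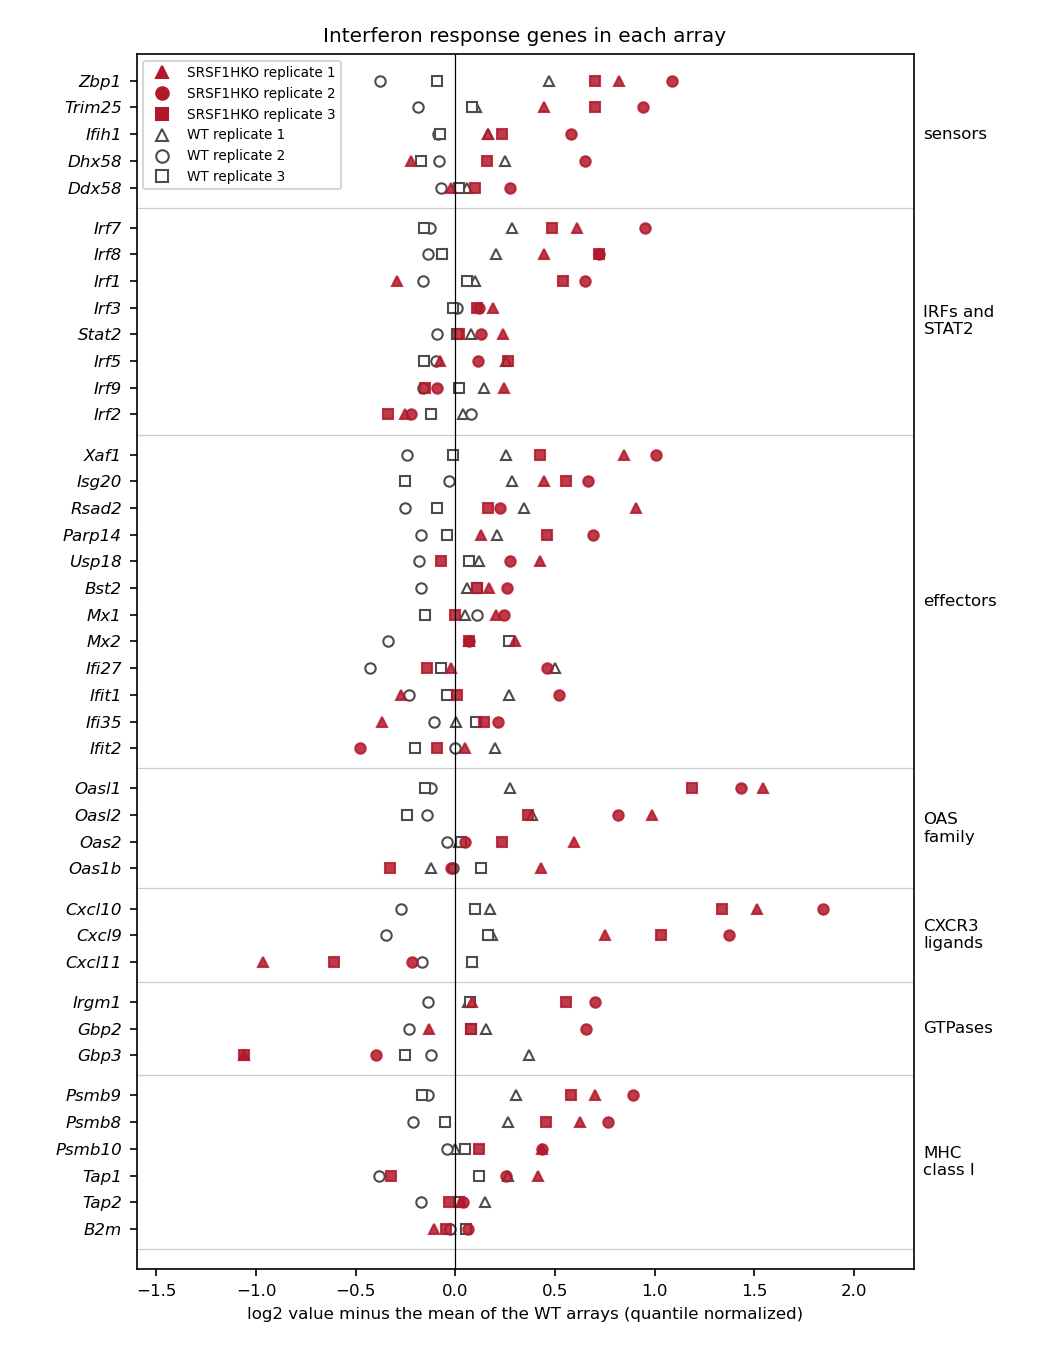
Quantile normalized log2 value of each of the 41 members on each array, minus the mean of the 3 WT arrays, grouped by role with filled symbols for SRSF1HKO and open symbols for WT. Cxcl10 and Oasl1 lie farthest to the right, Gbp3 and Cxcl11 farthest to the left, and SRSF1HKO replicate 2 (filled circles) is often the highest array.

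Of the 3 CXCR3 ligand genes, Cxcl10 rose, Cxcl9 was called higher on 1 scale and Cxcl11 lower on the other. Cxcl9 and Cxcl10 are chemokines that interferon gamma induces and that bind CXCR3 on activated T and NK cells. RefSeq lists the third gene, Cxcl11, as a transcribed pseudogene in the mouse reference strain, so its values here are those of a transcript. On the deposited scale Cxcl10 read 183, 209.5 and 139 in SRSF1HKO, against 83.4, 67.2 and 60.8 in WT. Its lowest SRSF1HKO array was above its highest WT array. The group means were 177 ± 35.7 in SRSF1HKO and 70.5 ± 11.6 in WT (SD, n = 3 each), and Cxcl10 rose by 1.57 ± 0.18 on the log2 scale after quantile normalization (SE, limma, adjusted p = 0.00205) and by 1.15 as deposited (adjusted p = 0.00348, limma).

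Cxcl9 read 564, 1073 and 822 in SRSF1HKO, against 666, 468 and 466 in WT. SRSF1HKO replicates 2 and 3 were above all WT arrays and replicate 1 was below WT replicate 1, an overlap that was gone after quantile normalization. Its difference was 1.05 ± 0.20 after quantile normalization (SE, limma, adjusted p = 0.0188) and 0.58 as deposited (limma, adjusted p = 0.136). Without SRSF1HKO replicate 1, the difference was 1.23 (limma, adjusted p = 0.000499), and Cxcl9 was then called on the deposited scale too. Without any one of the other 5 arrays it was 0.88 to 1.13 and no longer called after quantile normalization (limma, adjusted p = 0.0508 to 0.0811).

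Cxcl11 lay on the low side, with 49.8, 66.0 and 50.9 in SRSF1HKO and 143, 137 and 110.2 in WT. All SRSF1HKO arrays were below all WT arrays. Its difference was -0.60 ± 0.19 after quantile normalization (SE, limma, adjusted p = 0.149) and -1.03 as deposited (limma, adjusted p = 0.0123).

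The genes of the family were also set against each other within each array. As a log2 ratio within an array, Cxcl10 over Cxcl11 was 1.87, 1.67 and 1.45 in SRSF1HKO, against -0.78, -1.03 and -0.86 in WT. A ratio of 2 rows depends on their probes, so its level has no meaning of its own. What can be read is the difference of 2.55 between the groups, or 5.86-fold. A factor shared by all rows of an array cancels from a ratio, but a difference in spread between arrays does not. The interquartile range of log2 values was 1.34, 1.18 and 1.21 in SRSF1HKO and 1.46, 1.5 and 1.31 in WT. The size of the ratio differences may therefore depend on the normalization. Cxcl9 over Cxcl11 differed by 1.82 and Cxcl10 over Cxcl9 by 0.73, again with no overlap between the groups. These pairs and the others below were picked after their values were seen, and carry no test. Cxcl10 and Cxcl11 are neighbours on chromosome 5 with 0 protein-coding genes between them, and Cxcl9 lies beyond Cxcl10 with 1 such gene between.

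**Figure D3:**
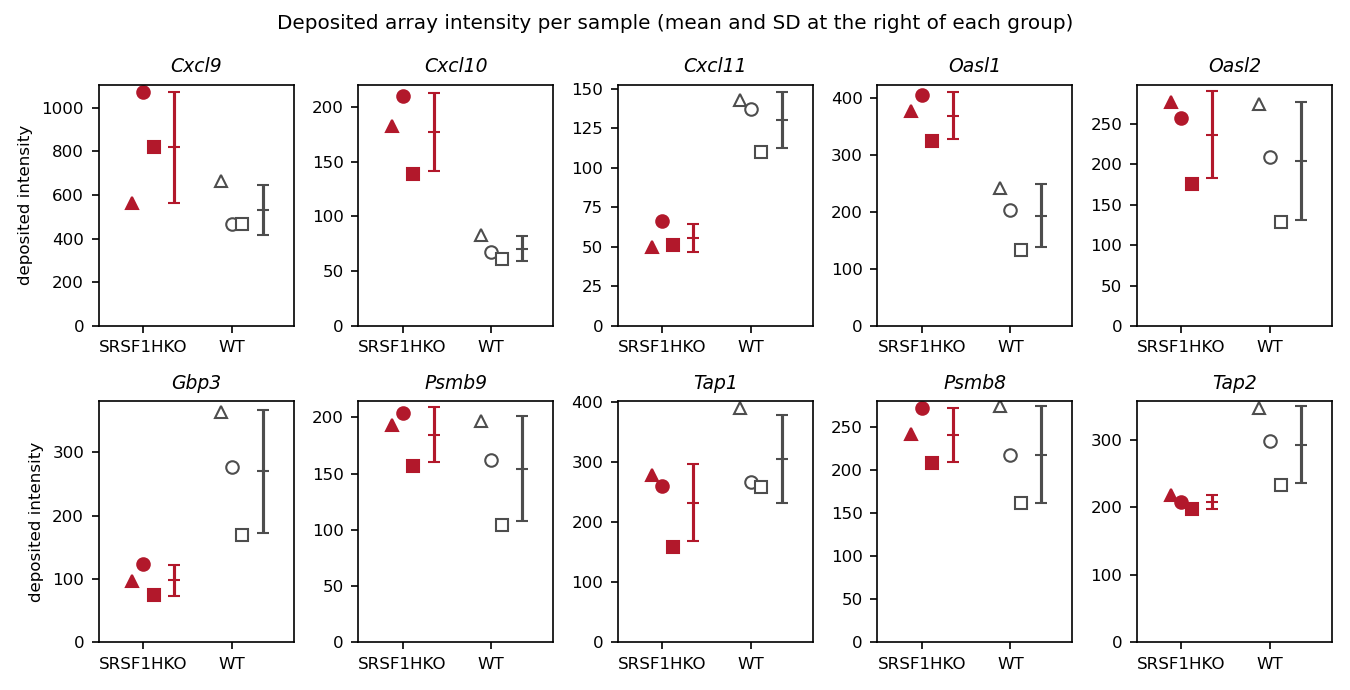
Deposited intensity of 10 members on each array, SRSF1HKO to the left of WT in each panel, with replicates 1, 2 and 3 as triangles, circles and squares and the mean with its SD at the right of each group. Cxcl10 and Oasl1 are higher in every SRSF1HKO array, as are 1.69% of all genes on this scale. Cxcl11, Gbp3 and Tap2 are lower in every one, as are 28.0% of all genes. After quantile normalization the Tap2 difference is 0.01.

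The oligoadenylate synthetase family is named for enzymes that make the short oligoadenylates that switch on RNase L, and its members differ in activity. Of its 6 members 4 were tested, with a median difference of 0.51 after quantile normalization, and 1, Oasl1, rose. Oasl1 read 377, 406 and 325 in SRSF1HKO, against 243, 205 and 133 in WT. Every SRSF1HKO array was above every WT array. The means were 369.7 ± 41.0 in SRSF1HKO and 194 ± 55.6 in WT (SD, n = 3 each), and the gene rose by 1.39 ± 0.16 after quantile normalization (SE, limma, adjusted p = 0.00249) and by 0.91 as deposited (limma, adjusted p = 0.0206).

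Oasl2, its neighbour on chromosome 5 with 0 protein-coding genes between, read 277, 258 and 176 in SRSF1HKO, against 275, 209 and 129 in WT. The groups overlapped, and its difference of 0.73 ± 0.22 did not pass (SE, limma, adjusted p = 0.112). Oasl1 over Oasl2, as a log2 ratio within an array, was 0.44, 0.66 and 0.89 in SRSF1HKO and -0.18, -0.03 and 0.05 in WT, a difference of 0.72 with no overlap. Oas2 and Oas1b had differences of 0.29 and 0.03, and neither was called in any fit of 6 arrays.

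Among the sensors, all 5 members had a difference above 0 after quantile normalization, where 48.8% of all genes did, with a median of 0.33. Of the 5, 1 was called higher on that scale, where 2.73% of all genes were. As deposited Ifih1, Dhx58 and Ddx58 were below 0, at -0.13, -0.23 and -0.36, where 6.58% of all genes were above 0. Trim25, the ubiquitin ligase that activates RIG-I, read 289, 467 and 378 in SRSF1HKO, against 355, 314 and 261 in WT. The groups overlapped as deposited, through SRSF1HKO replicate 1, and did not after quantile normalization. Its difference was 0.70 ± 0.16 after quantile normalization (SE, limma, adjusted p = 0.0485) and 0.26 as deposited (limma, adjusted p = 0.422). The call was lost without any one of the 5 arrays other than SRSF1HKO replicate 1 (0.56 to 0.74, limma, adjusted p = 0.123 to 0.221) and at a pseudocount of 1 (adjusted p = 0.0503).

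Zbp1, a sensor of left-handed nucleic acids that starts necroptosis, had the largest difference of any member without a call. It read 193, 215 and 156 in SRSF1HKO, against 202, 121 and 100.2 in WT. WT replicate 1 overlapped the SRSF1HKO arrays as deposited. The difference was 0.87 ± 0.22 after quantile normalization (SE, limma, adjusted p = 0.0614). The cytosolic RNA helicases moved less: Ifih1 (MDA5), Dhx58 (LGP2) and Ddx58 (RIG-I) had differences of 0.33, 0.19 and 0.12. Ddx58, the brightest row of the sensors, read 485, 737 and 628 in SRSF1HKO and 918, 834 and 629.7 in WT, and its difference was -0.36 as deposited, so its sign followed the scale.

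The interferon regulatory factors and STAT2, the transcription factors of the response, gave 0 calls among 8 members after quantile normalization (limma), where 2.73% of all genes were called higher and 1.41% lower, so the count does not set them apart. At an unadjusted p under 0.05, 2 were higher and 1 lower, where 8.94% and 6.40% of all genes were, and the median difference was 0.13. Irf7, the factor that amplifies type I interferon, read 354, 523 and 360.2 in SRSF1HKO, against 465, 364 and 247 in WT. The groups overlapped as deposited and did not after quantile normalization, where the difference was 0.68 ± 0.18 (SE, limma, adjusted p = 0.0683). Irf7 has 2 rows, and with their median the difference was 0.30 (limma, adjusted p = 0.325). Irf8, a factor of macrophages and dendritic cells, read 79.9, 71.4 and 76.4 in SRSF1HKO, against 76.7, 68.2 and 47.4 in WT, and its difference of 0.63 ± 0.15 missed the threshold narrowly (SE, limma, adjusted p = 0.0511).

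Irf2, which antagonises Irf1 at shared elements, was the factor on the low side. It read 533, 671 and 591 in SRSF1HKO, against 1182, 1189 and 747 in WT. No SRSF1HKO array reached the lowest WT array. The difference was -0.76 as deposited (limma, adjusted p = 0.0494) and -0.27 ± 0.11 after quantile normalization (SE, limma, adjusted p = 0.282).

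The remaining factors changed little on the quantile scale. Irf3, the constitutive factor that the sensors activate, read 952, 1167 and 1132 in SRSF1HKO and 1597, 1566 and 1133 in WT, and its difference was 0.14 ± 0.09 after quantile normalization (SE, limma, adjusted p = 0.585) and -0.39 as deposited. The subunits of the ISGF3 complex, Stat2 and Irf9, had differences of 0.13 and 0.00. Irf1 had 0.30 and Irf5 0.10.

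The antiviral effectors, the genes by which an interferon response is usually recognised, gave no call in either fit of 6 arrays (limma). After quantile normalization 2.73% of all genes were called higher and 1.41% lower, and as deposited 0.931% and 6.86%. The count of calls therefore does not set the effectors apart. At an unadjusted p under 0.05 from limma after quantile normalization, 3 of 12 were higher and 0 lower, where 8.94% and 6.40% of all genes were. Of 15 members 12 were tested, and their differences after quantile normalization ran from -0.17 to 0.76 with a median of 0.17. Xaf1, a pro-apoptotic antagonist of XIAP, read 125, 107 and 69.7 in SRSF1HKO, against 94.5, 73.3 and 58.6 in WT. SRSF1HKO replicates 1 and 2 were above all WT arrays and replicate 3 was not. The difference was 0.76 ± 0.19 after quantile normalization (SE, limma, adjusted p = 0.0614). Xaf1 has 2 rows, and with their median it was 0.22 (limma, adjusted p = 0.676).

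Usp18, the protease that removes ISG15 and dampens interferon receptor signalling, is the brightest row of the effectors. It read 553, 618 and 458 in SRSF1HKO and 799, 649 and 546 in WT, and its difference was 0.21 ± 0.16 after quantile normalization (SE, limma, adjusted p = 0.652) and -0.28 as deposited. Rsad2 (viperin) had a difference of 0.44, Parp14 0.43 and the exonuclease Isg20 0.55. The other effectors tested had smaller differences, where the quartiles of all genes were -0.14 and 0.14. These were 0.09 for Ifit1, -0.17 for Ifit2, 0.15 for Mx1, 0.15 for Mx2, 0.18 for Bst2 (tetherin), 0.10 for Ifi27 and 0.00 for Ifi35. Mx1 was dim, at 17.7 to 30.8 in SRSF1HKO and 18.01 to 38.1 in WT, on arrays whose medians were of that size.

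The interferon-inducible GTPases, which attack the vacuoles of intracellular pathogens, had 3 of 6 members tested. Gbp3 had the lowest difference of all 41. It read 97.6, 123 and 74.5 in SRSF1HKO, against 363, 277 and 170.4 in WT. Its highest SRSF1HKO array was below its lowest WT array. The difference was -1.28 as deposited (limma, adjusted p = 0.000459) and -0.84 ± 0.23 after quantile normalization (SE, limma, adjusted p = 0.0805).

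Without SRSF1HKO replicate 1 both fits called Gbp3 lower, with -0.75 after quantile normalization (limma, adjusted p = 0.0349). Gbp2 lies on chromosome 3 with 1 protein-coding gene between it and Gbp3. It read 64.5, 88.4 and 57.7 in SRSF1HKO and 97.0, 83.6 and 71.1 in WT, with a difference of 0.20. As a log2 ratio within an array, Gbp2 over Gbp3 was -0.60, -0.48 and -0.37 in SRSF1HKO and -1.91, -1.73 and -1.26 in WT, a difference of 1.15 with no overlap. Guanylate-binding proteins are a family of close paralogues, and the handling of probes shared among them is not stated in the labels. Irgm1, a regulator of the related immunity GTPases, read 439, 825 and 709.9 in SRSF1HKO and 756, 660.4 and 540.1 in WT, and its difference was 0.44 ± 0.17 after quantile normalization (SE, limma, adjusted p = 0.229) and -0.02 as deposited.

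In MHC class I antigen processing, the proteasome subunits lay above the peptide transporters in their differences. Psmb8, Psmb9 and Psmb10 replace the constitutive catalytic subunits to form the immunoproteasome, Tap1 and Tap2 carry peptides into the endoplasmic reticulum, and B2m is the light chain of MHC class I. Psmb9 read 193, 204 and 157 in SRSF1HKO, against 197, 162 and 104 in WT. The groups overlapped as deposited and did not after quantile normalization. The difference was 0.72 ± 0.17 after quantile normalization (SE, limma, adjusted p = 0.0476) and 0.27 as deposited (limma, adjusted p = 0.429). The call was lost without any one of the 5 arrays other than SRSF1HKO replicate 1 (0.62 to 0.87, limma, adjusted p = 0.0501 to 0.218) and with robust variance estimates (adjusted p = 0.051).

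Psmb8 read 241, 272 and 209 in SRSF1HKO, against 274, 217 and 162 in WT, with a difference of 0.62 ± 0.16 (SE, limma, adjusted p = 0.0736). Psmb10, which lies elsewhere, had 0.33. Tap1 read 278, 261 and 159 in SRSF1HKO and 390.2, 267 and 259 in WT, with a difference of 0.11, and Tap2 read 218, 208 and 197 in SRSF1HKO and 346, 298 and 233 in WT, with a difference of 0.01. Neither transporter gene was called in any fit of 6 arrays. B2m, the brightest row of the group, read 4216, 6929 and 5841 in SRSF1HKO and 7447, 6963 and 6994 in WT, with a difference of -0.03 ± 0.06 (SE, limma, adjusted p = 0.902).

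These genes are neighbours. Psmb9, Tap1, Psmb8 and Tap2 follow each other on chromosome 17 with 0 protein-coding genes between. Psmb9 and Tap1 are read in opposite directions from the stretch printed above, where the windows of both genes share 275 of their 300 bases and the starts are the first and the last of 227 bases. The difference was 0.72 for Psmb9 and 0.11 for Tap1 after quantile normalization. As a log2 ratio within an array, Psmb9 over Tap1 was -0.53, -0.35 and -0.02 in SRSF1HKO and -0.99, -0.72 and -1.31 in WT, and Psmb8 over Tap2 was 0.15, 0.38 and 0.08 in SRSF1HKO and -0.34, -0.46 and -0.52 in WT. The ratios differed by 0.71 and 0.64 between the groups, without overlap, for pairs picked after their values were seen.

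**Figure D4:**
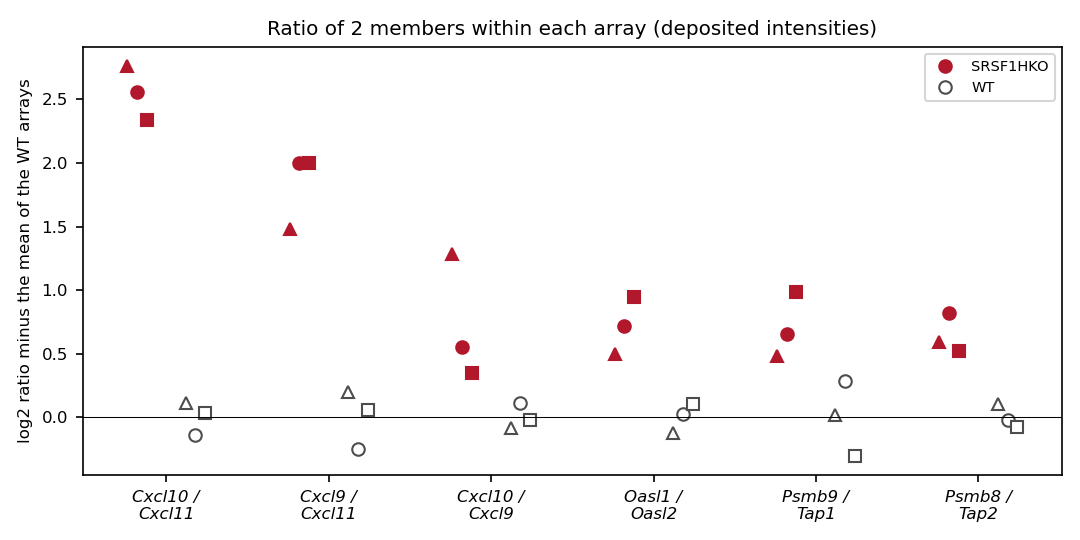
Log2 ratio of 2 members within each array, minus the mean of the 3 WT arrays, from deposited intensities, with SRSF1HKO filled and WT open. The groups do not overlap for any of the 6 pairs, and the distance is largest for Cxcl10 over Cxcl11, at 2.55.

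Leaving out SRSF1HKO replicate 1, the male array, raised the number of calls. Without it 15 members were called higher and 1 lower after quantile normalization, where 9.74% and 5.40% of all genes were, and 3 higher and 3 lower as deposited, where 0.983% and 16.3% were. Both fits then called 3 higher (Cxcl9, Cxcl10 and Oasl1) and 1 lower (Gbp3). The 5 members called higher with all arrays kept the call after quantile normalization, and the additional 11 were Zbp1, Irf1, Irf7, Irf8, Ifih1, Isg20, Xaf1, Parp14, Irgm1 and Psmb8, all higher, and Gbp3, lower. Their differences ran from 0.42 for Ifih1 to 0.92 for Zbp1 on the high side.

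Irf1 and Irgm1 were among the members that gained a call. Irf1 read 122 in SRSF1HKO replicate 1 and 207 and 189 in replicates 2 and 3, against 206, 193 and 152 in WT, and its difference was 0.30 with the array and 0.62 without it (limma, adjusted p = 0.678 and 0.00585). For Irgm1 the difference was 0.44 with the array and 0.64 without it (limma, adjusted p = 0.229 and 0.00184). The median over the members hardly moved, at 0.20 with the array and 0.21 without it, against -0.01 and -0.02 for all genes. The array was not low throughout: it was above the mean of SRSF1HKO replicates 2 and 3 by 0.71 for Rsad2, 0.61 for Oas1b, 0.46 for Oas2 and 0.46 for Tap1 on the quantile scale. Sex and sample cannot be told apart for it.

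**Figure D5:**
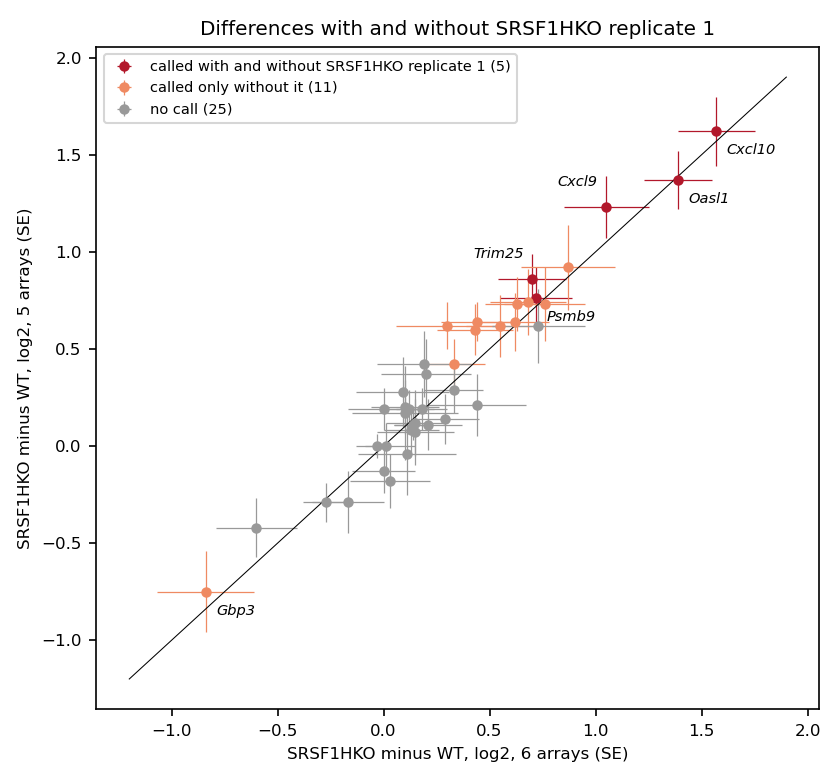
Difference between SRSF1HKO and WT of the 41 members after quantile normalization, from all 6 arrays (x axis) and from the 5 arrays without SRSF1HKO replicate 1 (y axis), on the log2 scale with SE as bars and the line of equal values. The 11 orange members are called only without that array, and the points lie near the line.

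The arrays of one group were not alike in these genes. SRSF1HKO replicate 2 was the highest of the 6 arrays for 22 of 41 members after quantile normalization, where it was highest for 18.3% of all genes, and SRSF1HKO replicate 1 was highest for 12, where it was for 31.3%. WT replicate 2 was the lowest array for 23 members, where it was lowest for 9.99% of all genes. With the arrays centred on their medians in place of quantile normalization, SRSF1HKO replicate 2 was highest for 27 members, where it was for 20.8% of all genes, SRSF1HKO replicate 1 for 2 (15.5%) and WT replicate 1 for 11 (30.7%). On that scale SRSF1HKO replicate 1 was the lowest array for the most members, 16, where it was lowest for 40.6% of all genes, and WT replicate 2 was lowest for 14 (5.40%). The members lay on average highest in SRSF1HKO replicate 2 and lowest in WT replicate 2 on the quantile scale, at medians of 0.44 and -0.14 from the WT mean, and SRSF1HKO replicate 3, at 0.14, was level with WT replicate 1, at 0.16.

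Differences of members with and without an ISRE core overlapped widely. The 12 tested members with an ISRE core in a matched window had a median difference of 0.16 after quantile normalization and ranged from -0.84 for Gbp3 to 1.57 for Cxcl10. The 18 tested members with a matched window and no ISRE core had a median of 0.58 and ranged from -0.17 to 1.39, with Oasl1 at the top. These are descriptions without a test, and 11 tested members had no matched window.

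The rest of the pathway was read from 128 further genes, of which 91 were tested. By both fits 2 rose and 0 fell, where 0.842% and 1.40% of all genes did, and at an unadjusted p under 0.05 from limma after quantile normalization 28 were higher and 2 lower, where 8.94% and 6.40% of all genes were. Cish, an inhibitor of JAK and STAT5 signalling, read 166, 449.6 and 695 in SRSF1HKO, against 144, 81.5 and 63.3 in WT. It rose by 2.22 ± 0.46 after quantile normalization (SE, limma, adjusted p = 0.0291) and by 1.87 as deposited (limma, adjusted p = 1.04e-08). Mlkl, the executor of necroptosis, read 257, 279 and 247 in SRSF1HKO, against 209, 103 and 95.6 in WT. It rose by 1.40 ± 0.24 after quantile normalization (SE, limma, adjusted p = 0.0132) and by 0.94 as deposited (limma, adjusted p = 0.0199). Both calls by the 2 fits were lost without SRSF1HKO replicate 2, SRSF1HKO replicate 3, WT replicate 2 or WT replicate 3, where 0 pathway genes were called. Without WT replicate 1 the count was 1. All SRSF1HKO arrays were above all WT arrays for both genes, and SRSF1HKO replicate 1 was the lowest of its group for Cish alone.

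After quantile normalization 6 of the 91 were called higher and 0 lower, where 2.73% and 1.41% of all genes were. Besides those 2 they were the interferon gamma receptor chain Ifngr1, with 0.94, the endosomal RNA sensors Tlr3 and Tlr7, with 0.68 each, and the entry inhibitor Ifitm3, with 0.51. On the deposited scale 2 were called higher and 3 lower, where 0.931% and 6.86% of all genes were, the 3 being the kinase Jak2, with -0.96, the GTPase Gbp7, with -0.95, and the peptide trimmer Erap1, with -0.88.

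None of the interferon genes tested was called in either fit (limma). After quantile normalization 2.73% of all genes were called higher and 1.41% lower, and as deposited 0.931% and 6.86%. None had an unadjusted p under 0.05 from limma after quantile normalization, where 8.94% of all genes were higher and 6.40% lower. The interferon genes tested were few, so these counts do not set them apart. Ifna4, at 13.6 to 38.3, lay near the array medians of 18.6 to 39.8. Ifnb1 read 33.0, 28.6 and 21.0 in SRSF1HKO, against 46.2, 61.5 and 28.4 in WT, with a difference of -0.11 ± 0.16 (SE, limma, adjusted p = 0.856). Ifng read 61.8, 56.3 and 52.4 in SRSF1HKO, against 111, 113.5 and 52.5 in WT, with a difference of -0.09. Ifne read 35.6, 22.8 and 29.8 in SRSF1HKO, against 47.4, 60.8 and 44.7 in WT, with a difference of -0.20. All its SRSF1HKO arrays were below all WT arrays after quantile normalization, where 10.1% of all genes were, and as deposited, where 28.0% were. Of 24 interferon and receptor genes 13 were tested, with a median difference of 0.07. Receptor signalling had 12 tested and a median of 0.09, nucleic acid sensing 20 and 0.12, further inducible genes 37 and 0.36, and MHC class I heavy chains and loading 9 and -0.02.

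Markers of the liver cell types were read on the same arrays. The hepatocyte markers were the brightest list, with 7 measured and summed intensities as deposited of 33596 to 51087 in SRSF1HKO and 53038 to 58538 in WT. After quantile normalization the sums were 45420 to 50175 in SRSF1HKO and 51097 to 53220 in WT, with a median difference of -0.02. Of the 7, 1 was called lower on that scale and 0 as deposited: Alb, at -0.34 (limma, adjusted p = 0.00444). Of 14 Kupffer cell and macrophage markers measured, 1 rose by both fits, where 0.842% of all genes did. This was Cd68, a lysosomal glycoprotein, which read 306, 139 and 103 in SRSF1HKO, against 85.1, 68.3 and 31.1 in WT. The median difference of those 14 was 0.50 after quantile normalization, above the 0.20 of the interferon response genes. Their summed intensity on that scale was 2289 to 2757 in SRSF1HKO and 1351 to 1778 in WT, and as deposited 1879 to 2361 in SRSF1HKO and 1277 to 2509 in WT.

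Clec4f, which defines mouse Kupffer cells, had a difference of 0.13, and the 14 ran from -0.16 for Cd163 to 1.81 for Cd68. Between these were Mpeg1 with 0.97, C1qb with 0.76, Cd5l and C1qc with 0.73 each, Timd4 with 0.52, and Vsig4 and Adgre1 with 0.50 each. Lower were C1qa with 0.21, Fcgr1 with 0.20, Csf1r with 0.03 and Marco with -0.03. Of the 14, 0 was below its array's median on every array. Stellate cell and fibroblast markers had a median difference of 0.35 over 10 genes, with a summed quantile intensity of 2370 to 3415 in SRSF1HKO and 1744 to 2060 in WT. As deposited that sum was 1931 to 2942 in SRSF1HKO and 1648 to 2649 in WT. The dendritic cell list had a median of 0.24 over 7 genes, T and NK cells 0.07 over 8, B cells -0.035 over 4, neutrophils 0.02 over 5, endothelial cells -0.075 over 10 and cholangiocytes 0.05 over 4. Of the T and NK cell markers 3 of 11 were below the array median on every array, and no marker was at 0. The part of these cells in the differences of the members was not tested.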

How the data were processed

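Total RNA of 3 SRSF1HKO and 3 WT samples was measured on 1 mouse exon array each, and the genotype label set the groups. The deposited values are array intensities on a linear scale, summarised with PLIER, and the build is mm9, per the submitters' processing notes. Neither a background step nor a normalization across arrays is named there. The intensities reach 19074, and the array medians differ. The table has 238609 rows, of which 24343 carry 1 gene symbol, 1797 several and 212469 none in the platform annotation, and only rows with 1 symbol were named. No sample column was left unused (0).

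The log2 of intensity plus 16 was analysed with limma 3.58.1 (lmFit and eBayes with an intensity trend) in R 4.3.3. Rows whose mean log2 value fell under the 40th percentile were dropped, the brightest row stood for a gene, and p-values were adjusted by Benjamini-Hochberg over all 19123 genes tested. The fit was made after quantile normalization and on the deposited scale, and a gene rose or fell where both gave an adjusted p under 0.05 in the same direction. Differences are SRSF1HKO minus WT after quantile normalization unless the deposited scale is named, and on the log2(intensity + 16) scale, which understates changes of dim genes. The number of arrays, 3 per group, limits the precision, and no batch is given in the labels.

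Full values are given for members called in either fit, for the brightest row of each role, and for the 6 uncalled members with the largest differences, with other members by value, range or count. The members, the pathway lists, the marker lists and these rules were chosen with earlier results of these data known. The scripts were tested on simulated data. Alternatives changed the pseudocount, the filter, the row per gene, the variance estimate, the scaling and the set of arrays. Promoter sequences and gene neighbours came from RefSeq tables on GRCm38.p6, a later build than mm9, so no array position was used. For neighbours, only protein-coding genes and Cxcl11 were counted. Protein sequences were not used here.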

Additional observations from a re-analysis of the deposited data

How the results depend on the processing

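No paired analysis was possible because the replicate numbers follow accession order and only name the arrays. Leaving out each array in turn gave 2 to 16 members called after quantile normalization, 1 to 10 as deposited, 1 to 4 by both fits, 0 to 4 pathway genes by both fits, a median member difference of 0.15 to 0.30 and a difference of -0.63 to -0.35 for Srsf1. The 16 came without SRSF1HKO replicate 1, with 15 higher and 1 lower (9.74% and 5.40% of all genes), and the 10 without WT replicate 3, with 2 higher and 8 lower (0.920% and 36.2% of all genes). Without SRSF1HKO replicate 2 the counts were 3 after quantile normalization, 2 as deposited and 1 by both fits, which was Gbp3, lower (2.37%, 3.89% and 1.30% of all genes). Over 12 settings Cxcl10 was called by both fits in 11 and Oasl1 in 8, Gbp3 in 2 and Cxcl9 in 1, and Trim25, Psmb9, Irf2 and Cxcl11 in 0. After quantile normalization alone Cxcl10 and Oasl1 were called in all 12, Cxcl9 in 7, and Trim25 and Psmb9 in 6 each. On the deposited scale the member median was -0.22 and Srsf1 was called at -0.95 (limma, adjusted p = 0.010). The sign turned on that scale for 22 of 41 members, 0 of them called in either fit, and for 42.3% of all genes. Among those named with full values were Ddx58 (-0.36), Irf3 (-0.39), Usp18 (-0.28) and Irgm1 (-0.02), and the scale itself had an all-gene median of -0.44. With the median over the rows of a gene, Srsf1 was at -0.27, Irf7 at 0.30 and Xaf1 at 0.22. Median centring, which left the median gene at -0.12 and the members at 0.10, turned Ddx58 (-0.04) and Irf3 (-0.07). It called 4 of 41 members, where 550 of all 19123 genes were called. These were Cxcl10 (1.47) and Oasl1 (1.23) higher, and Gbp3 (-0.96) and Cxcl11 (-0.71) lower, while Cxcl9, Trim25 and Psmb9 were not called. Without SRSF1HKO replicate 1 B2m was at 0.00. Why the scalings differ was not tested. The members near the array medians, such as Mx1, are limited by signal.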

Other observations

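For 6 members there are values only in rows that name several genes, so that no value belongs to 1 gene. The row of Igtp and Irgm2, immunity GTPases, read 319.8, 395 and 395 in SRSF1HKO and 630.3, 528 and 355 in WT, a difference of 0.05 after quantile normalization. The row that names Iigp1 with 2 further genes read 780.4, 1751 and 1341 in SRSF1HKO and 2248, 2013 and 1436 in WT, a difference of -0.08. For the IFIT proteins Ifit3 and Ifit3b the row read 30.5, 28.1 and 25.7 in SRSF1HKO and 51.9, 50.2 and 30.6 in WT, a difference of -0.07. The row of the synthetases Oas1a and Oas1g differed by 0.02 and the row of Oas3 and Oit3 by -0.04. None of the rows that name a member beside other genes had all SRSF1HKO arrays above all WT arrays on either scale. Of all genes tested, 11.6% did after quantile normalization and 1.69% as deposited. The row of Ifit3 and Ifit3b and a dim row naming Gbp6 with other genes had all SRSF1HKO arrays below all WT arrays as deposited. This held for 28.0% of all genes tested, and for none of these rows after quantile normalization.

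Outside the members, genes called after quantile normalization only without SRSF1HKO replicate 1 brought the pathway lists to 23 higher and 2 lower of 91, where 9.74% and 5.40% of all genes were called. The largest list, of 37 further interferon-inducible genes tested, held 14 of the 23. Among them Ifi27l2a, a mitochondrial relative of Ifi27, had 1.11, the Schlafen family member Slfn5 0.79, and the HIN-200 family member Ifi203 0.73. Socs3, a feedback inhibitor of cytokine receptors, had 0.83 without that array and 0.67 with it (limma, adjusted p = 0.00129 and 0.0554).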
